A study of Homo sapiens with 6 samples.

Results

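The clustered histone genes are the genes that code for the core histones H2A, H2B, H3 and H4 and the linker histone H1 and lie together in arrays on the chromosomes. They were taken from the RNA-sequencing table of H1975 cells by their symbols, as every row whose symbol begins with HIST, a cluster number from 1 to 4 and H. This gave 71 of 27216 rows, of which 6 code for H1, 17 for H2A, 18 for H2B, 15 for H3 and 15 for H4. By cluster, 55 carry HIST1 symbols, 12 HIST2, 3 HIST3 and 1 HIST4, and HIST2H3PS2 is a pseudogene by its symbol, while GENCODE v29 lists it as protein-coding. H1975 is a human non-small cell lung cancer line with a mutant EGFR, and osimertinib (Osi) is a tyrosine kinase inhibitor of that receptor. The study compared 3 samples of parental cells, labelled as Osi for 0 h with data columns named for DMSO, with 3 samples of adapted cells, which had been in Osi for 72 h at the labelled dose of 1000 nM. Apoptotic cells had been washed off, so the adapted samples hold the cells that were left at 72 h. All 6 samples came from this single line, and the labels do not say whether they were separate cultures, so the p-values measure the spread between these samples only.

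Most clustered histone genes are replication-dependent: they are transcribed in S phase, when new DNA has to be packed into nucleosomes, and are otherwise kept low. Their genes lack introns and their mRNAs end, without a poly(A) tail, just after a short stem-loop that is bound by SLBP and cleaved with the help of the U7 snRNP. Some of them can also give longer, polyadenylated transcripts, which are known from cells that have left the cell cycle. The variant histones are made from single genes elsewhere in the genome. Many of their mRNAs, such as those of H3F3A and H1F0, are not tied to S phase and carry ordinary poly(A) tails. This does not hold for every variant on the list below, among them H2AFX and CENPA.

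The stem-loop is the sequence that sets these genes apart, and 1 window is shown for each of the 6 forms found among the members. GENCODE v29 transcripts (GRCh38) of the 71 genes were searched on the sense strand past the stop codon for a pattern of 16 bases, in which the letters shared by all 6 forms below were fixed and the other 4 were free. A match was found in 32 members, 24 of the 30 with a mean value of at least 1 and 8 of the other 41. Of all 19940 protein-coding genes, these members included, 42 (0.211%) hold the pattern anywhere in a transcript. The windows lie at chr6:26124664-26124689 (plus strand, HIST1H2AC), chr6:26158582-26158607 (plus, HIST1H2BD), chr6:26285126-26285151 (minus, HIST1H4H), chr1:149833027-149833052 (plus, HIST2H4A), chr6:26225591-26225616 (plus, HIST1H3E) and chr6:27133510-27133535 (plus, HIST1H2AG), each past the stop codon, and capitals mark the match.
HIST1H2AC: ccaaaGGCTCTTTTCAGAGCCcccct
HIST1H2BD: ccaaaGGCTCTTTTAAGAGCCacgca
HIST1H4H: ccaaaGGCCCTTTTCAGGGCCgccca
HIST2H4A: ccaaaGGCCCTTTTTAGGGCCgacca
HIST1H3E: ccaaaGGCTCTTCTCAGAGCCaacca
HIST1H2AG: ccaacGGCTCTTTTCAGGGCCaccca
The form of HIST1H2AC was found in 17 genes, those of HIST1H2BD and HIST1H4H in 5 each, that of HIST2H4A in 3, and those of HIST1H3E and HIST1H2AG in 1 each. Where no match was found, the annotated transcript often stops at the stop codon, which was so for 35 of the 71 members.

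The sources used here do not state whether polyadenylated RNA was selected, and the labels describe an RNase R digestion of linear RNA that the study's methods do not name. How much of the stem-loop form of each mRNA was captured is therefore unknown, and all levels below are levels in these libraries. Values are on a log2(FPKM + 1) scale, a measure corrected for gene length and library size, which was inferred from the values since the authors name no unit. Sequencing depth is unknown because read counts were not used. Per sample, linear values added up to 375342 to 387753. Across all rows, parental samples correlated with each other at r = 0.997, adapted replicates 2 and 3 at 0.996, and adapted replicate 1 with each of these at 0.991, so that adapted replicate 1 stood closer to the parental samples (0.972 to 0.973) than the other adapted samples did (0.963 to 0.964). Of the markers of an epithelial line, EPCAM, CDH1, KRT7, KRT8, KRT18 and KRT19 lay between 7.08 and 10.6 in every sample. Of 7 markers of other cell types, CD3E and HBB were listed at 0 in every sample, PTPRC and DCN reached at most 0.11, CD68 was 6.25 ± 0.02 in parental and 4.40 ± 0.50 in adapted cells, PECAM1 was 1.22 ± 0.21 and 0.09 ± 0.02, and COL1A1 was 2.02 ± 0.02 and 3.14 ± 0.16 (mean ± SD, n = 3). Their part in the results on histone genes was not tested.

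Of the 71 clustered histone genes, 30 had a mean of at least 1 over the 6 samples and entered the test: 2 of H1, 8 of H2A, 11 of H2B, 2 of H3 and 7 of H4. In adapted cells 17 of the 30 rose (56.7%), 2 fell (6.67%) and 11 were not called (limma, adjusted p under 0.05). Over all 12656 rows tested, 56.9% were called, 30.7% as higher and 26.2% as lower. The median log2 fold change was 0.47 over the 30 members and 0.03 over all rows tested. The 3 adapted values lay above all 3 parental values in 18 members, below them in 4, and overlapped in 8, beside 35.7% above and 30.6% below over all rows tested. The cells of each sample were measured in bulk, so a larger share of cells that make a transcript and more transcript per cell cannot be told apart. Among the 17 members that rose, adapted replicate 1 had the lowest of the adapted values in 13, adapted replicate 2 in 3 and adapted replicate 3 in 1, and without adapted replicate 1 the counts were 16 higher and 2 lower.

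**Figure D1:**
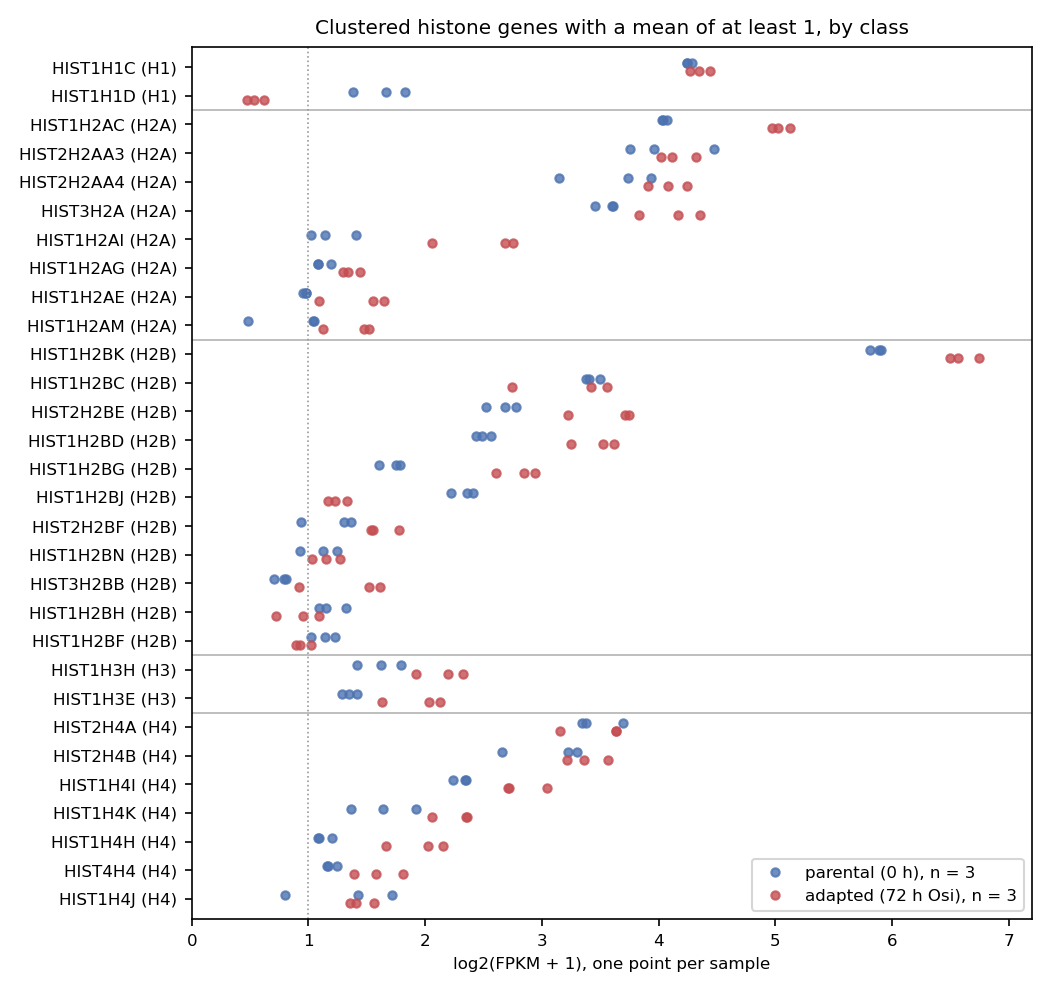
Level of each of the 30 clustered histone genes that entered the test, as log2(FPKM + 1), with 1 point per sample for the 3 parental and the 3 adapted samples, grouped by histone. HIST1H2BK lies far above the other members in both groups, and HIST1H2BJ and HIST1H1D are the members called lower.

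Of the 11 H2B genes tested, 6 rose and 1 fell. HIST1H2BK (chr6:27146418-27146798, minus strand, GENCODE v29) was the most abundant clustered histone gene in every sample. Its level was 5.91, 5.89 and 5.81 in the parental samples and 6.50, 6.75 and 6.57 in the adapted samples. All adapted values lay above all parental values, and the gene rose by 0.74 on the log2 scale (SE 0.08, limma adjusted p = 2.19e-04). On the linear scale this was 57.5 FPKM in parental and 96.6 FPKM in adapted cells.

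HIST1H2BJ, an H2B gene of the same array whose coding sequence is 92.1% identical to that of HIST1H2BK, moved the opposite way. Its level was 2.22, 2.41 and 2.36 in parental cells and 1.17, 1.33 and 1.23 in adapted cells. The groups stood apart, and the gene fell by 1.09 on the log2 scale (SE 0.09, limma adjusted p = 7.58e-05). Under every alternative in which it was tested, its log2 fold change was -1.05 or lower.

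The upstream windows of this pair are shown because these genes lie close together and changed in opposite directions. RefSeq (GRCh38.p14) gives 250 bases before and 50 after the start of transcription, at chr6:27146809-27147108 for HIST1H2BK and chr6:27132746-27133045 for HIST1H2BJ, both on the minus strand, and capitals mark, on either strand, the TATA box letters TATAAA, the letters CCAAT bound by the factor NF-Y, and the octamer ATTTGCAT.
HIST1H2BK: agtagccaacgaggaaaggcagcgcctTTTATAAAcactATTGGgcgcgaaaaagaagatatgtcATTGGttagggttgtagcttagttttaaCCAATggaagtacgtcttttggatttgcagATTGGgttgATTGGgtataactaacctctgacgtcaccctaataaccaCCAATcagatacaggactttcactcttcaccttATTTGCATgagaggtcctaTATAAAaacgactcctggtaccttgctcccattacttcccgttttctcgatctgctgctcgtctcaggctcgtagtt
HIST1H2BJ: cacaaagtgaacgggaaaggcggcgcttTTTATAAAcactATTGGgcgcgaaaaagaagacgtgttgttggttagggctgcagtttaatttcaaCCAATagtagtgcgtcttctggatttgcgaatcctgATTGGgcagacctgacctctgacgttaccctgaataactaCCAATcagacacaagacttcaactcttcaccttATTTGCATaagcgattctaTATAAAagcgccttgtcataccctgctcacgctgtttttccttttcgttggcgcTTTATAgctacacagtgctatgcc
The windows were 74.7% identical over 300 bases, and each held all 3 motifs. A window was found for 66 of the 71 members. TATAAA was in 44 of the 66 (66.7%, against 11.5% of all 35116 windows), CCAAT in 56 (84.9%, against 34.6%) and ATTTGCAT in 26 (39.4%, against 1.77%). The octamer, the letters bound by the factor POU2F1, was in 14 of 18 H2B and 11 of 16 H2A windows, in 1 of 13 H3 windows, and in none of the 6 H1 and 13 H4 windows. The 1 H3 window, listed for HIST1H3D, is the same stretch as that of HIST1H2AD (chr6:26199244-26199543) and is counted in both classes. Windows of genes that lie head to head also overlap, as for HIST1H2AC (chr6:26123922-26124221) and HIST1H2BC (chr6:26123877-26124176). Since both strands were searched, any of the 3 motifs in a shared stretch was counted for both genes, so these counts are not independent. Of the 17 members that rose, 7 held ATTTGCAT, as did 1 of the 2 that fell and 4 of the 11 that were not called. These groups share octamers: HIST1H2AC, which rose, has the same one as HIST1H2BC, which was not called. The octamer of HIST1H2BJ, which fell, is that of HIST1H2AG, which was not called. HIST1H2BG and HIST1H2AE, which both rose, also share theirs. A match describes the letters only and is not evidence that a factor was bound, or that it belongs to the gene named. The HIST1H2BJ window reaches the annotated start of its neighbour HIST1H2AG. Its last marked TTTATA lies in the 50 bases after the start of HIST1H2BJ.

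Of the other H2B genes, 5 rose. HIST1H2BG was 1.75, 1.60 and 1.78 in parental and 2.61, 2.85 and 2.94 in adapted cells, with no overlap (log2 fold change 1.09, SE 0.11, limma adjusted p = 1.57e-04). HIST1H2BD was 2.49, 2.56 and 2.44 in parental and 3.25, 3.52 and 3.62 in adapted cells (0.97, SE 0.10, limma adjusted p = 2.44e-04). The groups were again apart, with adapted replicate 1 the lowest adapted sample in both genes. HIST2H2BE, on chromosome 1, was 2.52, 2.69 and 2.78 against 3.22, 3.71 and 3.75 (0.90, SE 0.15, limma adjusted p = 0.00185). HIST3H2BB (0.58, limma adjusted p = 0.0274) and HIST2H2BF (0.42, limma adjusted p = 0.0322) were called with smaller margins, and both lost the call when single samples were left out or without the filter on low values. The parental mean of HIST3H2BB, 0.767, lies below 1, so it entered the test through the adapted samples. The 4 remaining H2B genes gave log2 fold changes of -0.27 (HIST1H2BH), -0.18 (HIST1H2BF), -0.18 (HIST1H2BC) and 0.05 (HIST1H2BN), with limma adjusted p from 0.102 to 0.751. HIST1H2BC was decided by adapted replicate 1, which stood at 2.75 beside 3.42 and 3.56 in the other adapted samples and 3.37, 3.40 and 3.50 in parental cells. Without that sample its log2 fold change was 0.07.

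All 8 H2A genes tested had a positive log2 fold change, and 5 were called. HIST1H2AC (chr6:26124145-26139116, plus strand) was the second most abundant member by its mean over all 6 samples. Its level was 4.07, 4.03 and 4.04 in parental and 4.97, 5.13 and 5.02 in adapted cells. The spread within each group was small beside the gap between them, and the gene rose by 0.99 (SE 0.06, limma adjusted p = 2.41e-05). HIST1H2AI was 1.14, 1.41 and 1.02 in parental cells and 2.06, 2.69 and 2.75 in adapted cells, the largest rise among the 30 members (1.31, SE 0.20, limma adjusted p = 0.00117). HIST3H2A rose by 0.56 (limma adjusted p = 0.00844), from 3.61, 3.60 and 3.46 to 3.83, 4.35 and 4.16. HIST1H2AM (0.52, limma adjusted p = 0.0453) and HIST1H2AE (0.46, limma adjusted p = 0.0329) stood near the threshold and lost the call when most single samples were left out. Their parental means, 0.854 and 0.969, lie below 1, so both entered the test through the adapted samples. HIST1H2AG was just past the threshold on the other side (0.24, limma adjusted p = 0.0505).

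The remaining H2A genes, HIST2H2AA3 and HIST2H2AA4, have the same coding sequence, and so do HIST2H4A and HIST2H4B, and HIST1H4J and HIST1H4K, so the split of reads between such copies is uncertain. In parental replicate 3, HIST2H2AA3 was 4.47 and HIST2H2AA4 was 3.15, while in parental replicate 1 both stood near 3.75 (3.75 and 3.74). When the linear values of each pair were summed, the HIST2H2AA3 and HIST2H2AA4 sum was 4.69, 4.90 and 4.91 in parental and 5.06, 5.24 and 4.92 in adapted cells (0.24, limma adjusted p = 0.0798). The sum of HIST2H4A and HIST2H4B was 4.25, 4.22 and 4.19 against 4.37, 4.54 and 4.18 (0.15, limma adjusted p = 0.218). The lowest adapted value of the HIST2H4A and HIST2H4B sum lay below all parental values, and that of the H2A sum barely above them. The sum of HIST1H4J and HIST1H4K was 2.26, 1.73 and 2.60 against 2.82, 2.52 and 2.76, with overlap (0.50, limma adjusted p = 0.0772), so the call for HIST1H4K alone was not kept for the sum. Summing was chosen after the values were seen.

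Among the H4 genes 4 of 7 were called, all higher. HIST1H4H was 1.202, 1.08 and 1.09 in parental and 1.66, 2.02 and 2.15 in adapted cells, with no overlap (0.82, SE 0.13, limma adjusted p = 0.00169). HIST1H4I was 2.35, 2.34 and 2.24 against 2.71, 3.04 and 2.72 (0.51, limma adjusted p = 0.00484). HIST1H4K (0.61, limma adjusted p = 0.0123) and HIST4H4, the member on chromosome 12 (0.40, limma adjusted p = 0.0221), were also called. For HIST4H4, 4 of the 6 fits that left out a sample gave no call. HIST2H4A, HIST2H4B and HIST1H4J had log2 fold changes of 0.0045, 0.32 and 0.13 (limma adjusted p = 0.983, 0.155 and 0.644).

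Histone H3 was represented by 2 genes, and both rose. HIST1H3E was 1.35, 1.42 and 1.29 in parental and 1.63, 2.12 and 2.03 in adapted cells (0.58, SE 0.14, limma adjusted p = 0.00892). HIST1H3H was 1.80, 1.42 and 1.62 against 1.92, 2.32 and 2.19 (0.54, limma adjusted p = 0.0129). In both genes the lowest adapted sample, replicate 1, was close to the highest parental one.

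Of the linker histone H1, which binds the DNA between nucleosomes, 2 genes were tested and neither was called higher. HIST1H1C, the third most abundant member by its mean over all 6 samples and the second in parental cells, was 4.24, 4.29 and 4.25 in parental and 4.27, 4.44 and 4.35 in adapted cells, and the groups overlapped (0.09, limma adjusted p = 0.247). HIST1H1D (chr6:26234268-26234933, minus strand) was 1.38, 1.83 and 1.67 in parental and 0.47, 0.62 and 0.53 in adapted cells. No value overlapped, and the gene fell by 1.09 on the log2 scale (SE 0.13, limma adjusted p = 3.76e-04). Its adapted mean lies below 1, so it entered the test through the parental samples. In all, 6 of the 30 members had 1 group mean under 1, 3 of them higher and 3 lower in adapted cells, and among the 24 with both means of at least 1, 14 rose and 1 fell. Over all rows tested, 678 had 1 group mean under 1, 388 of them higher and 290 lower in adapted cells. Of the 11978 rows with both means of at least 1, 3588 rose and 3084 fell.

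**Figure D2:**
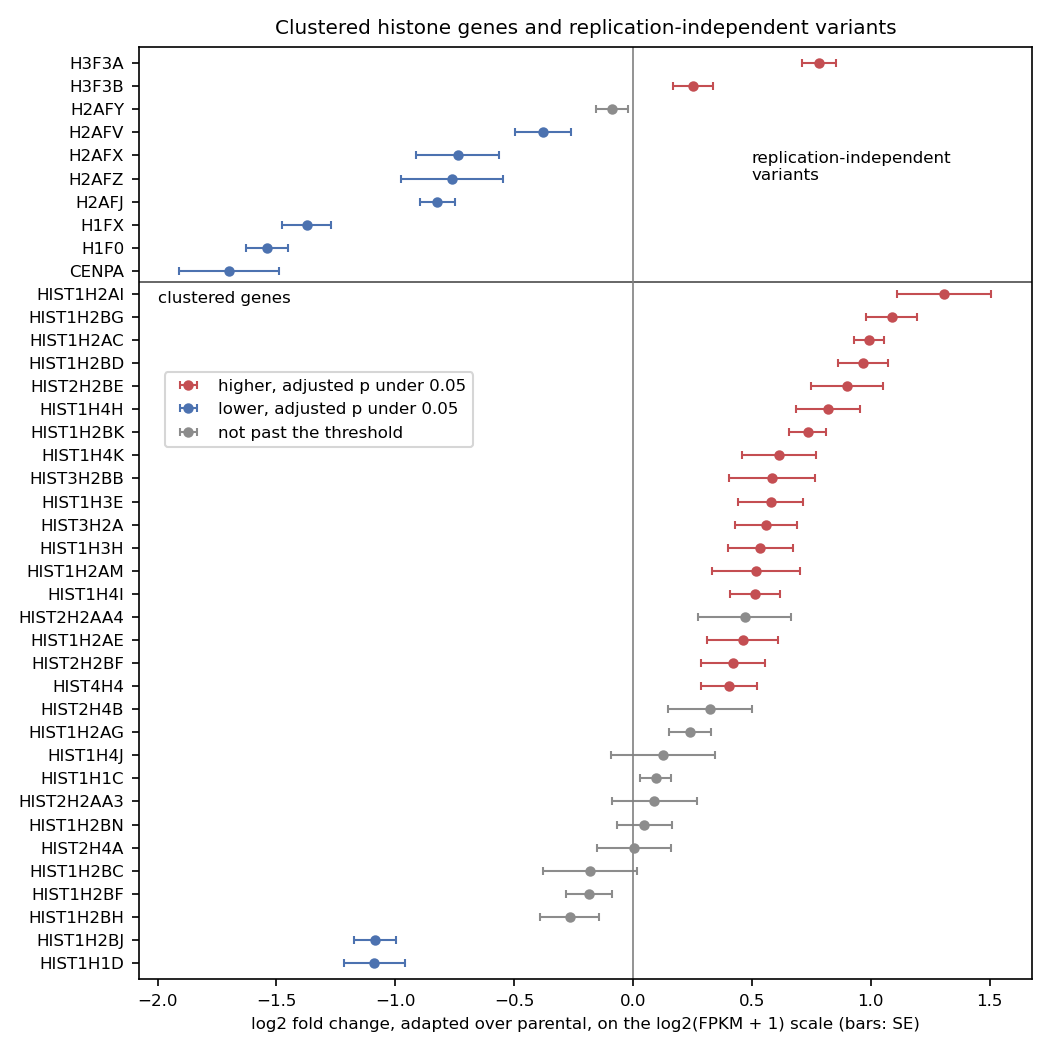
Log2 fold change of adapted against parental cells for the 30 clustered histone genes and the 10 variant genes tested, with the standard error from limma as a bar and the call shown by color. Clustered H2A, H3 and H4 genes lie above 0, except that HIST2H4A (0.0045) turned to -0.0094 with quantile normalization, while 4 H2B members and HIST1H1D lie below 0.

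The other 41 members had a mean under 1, 7 of them at 0 in every sample (HIST1H1A, HIST1H2AA, HIST1H2AK, HIST1H2BA, HIST1H4A, HIST1H4G and HIST1H4L). Their median mean was 0.161 and their highest single value 1.42. Just inside the limit were HIST3H2BB and HIST1H2BH (both 1.06) and HIST1H2BF (1.04), and just outside it HIST2H2AC (0.886), HIST1H2BE (0.867) and HIST2H3C (0.762). The adapted mean was higher in 13 of the 41 and lower in 21, and the adapted values lay above all parental values in 2 and below them in 9. Over all 14560 rows under the limit, the adapted mean was higher in 41.4% and lower in 35.9%, and the adapted values lay above all parental values in 13.2% and below them in 10.1%. With no filter 64 members were tested, of which 14 were called higher and 8 lower, beside 19.9% higher and 16.7% lower over the 23902 rows tested, and the median log2 fold change was 0.04. By histone the calls higher and lower with no filter were 0 and 2 of 5 for H1, 3 and 2 of 15 for H2A, 5 and 1 of 17 for H2B, 2 and 2 of 15 for H3, and 4 and 1 of 12 for H4.

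HIST2H2AC, an H2A gene, was 1.24, 1.42 and 1.32 in parental and 0.69, 0.40 and 0.25 in adapted cells (-0.88, limma adjusted p = 0.00303 with no filter). HIST1H2BE was 0.48, 0.38 and 0.54 against 1.29, 1.32 and 1.19 (0.80, limma adjusted p = 6.42e-04 with no filter). In both genes the groups stood well apart although the level was low. HIST1H3B was 0.33, 0.65 and 0.87 in parental cells and listed at 0 in all adapted samples (-0.62, limma adjusted p = 0.0132 with no filter). HIST1H3I was the other member at 0 in all adapted and above 0 in all parental samples, but it was not called with no filter (limma adjusted p = 0.177). HIST1H2AL (-0.34, limma adjusted p = 0.0414) and HIST1H1B (-0.31, limma adjusted p = 0.00833) were also called lower with no filter.

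Many H2A and H2B genes lie head to head, so that a short stretch of DNA between their starts serves both. In GENCODE v29, 11 such pairs had starts at most 1000 bases apart, and in 4 of them both genes were tested. HIST1H2BG and HIST1H2AE (283 bases between starts) both rose, as did HIST3H2A and HIST3H2BB (234 bases). In the other pairs tested the genes had different calls. HIST1H2AC rose by 0.99 while its partner HIST1H2BC, 219 bases away, had a log2 fold change of -0.18. HIST1H2BJ fell while HIST1H2AG, 292 bases away, had a log2 fold change of 0.24. The difference between partners was not itself tested. With 1 partner under a mean of 1, HIST2H2BE rose beside HIST2H2AC (323 bases), whose mean was 1.33 in parental and 0.445 in adapted cells. HIST1H2BK rose beside HIST1H2AH (0.201 and 0.0679, 331 bases), whose groups overlapped. HIST1H2AI rose beside HIST1H2BL (0.642 and 0.342, 268 bases), and HIST1H2AM beside HIST1H2BO (0.471 and 0.124, 314 bases). With no filter HIST1H2AH, HIST1H2BL and HIST1H2BO were not called (limma adjusted p = 0.209, 0.203 and 0.112). HIST1H2BF was not called, and its partner HIST1H2AD stood at 0.106 and 0.114 (277 bases).

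The annotated 3′ end also varied among members. In GENCODE v29 a transcript that reaches at least 100 bases past the stem-loop was found for 18 of the 30 members tested and for 5 of the 41 under the limit. It was found for 11 of the 17 that rose, 0 of the 2 that fell and 7 of the 11 not called. HIST1H2AC reached 1128 bases past its stem-loop, HIST1H4H 1655 and HIST2H2BE 1729, and the HIST1H2BD transcript with a stem-loop match 39. Transcripts without a match were not counted, however long. Such transcripts reached 384 bases past the stop codon for HIST1H2BD, which rose, and 569 for HIST1H2BJ, which fell. An annotated model is not a measurement in these cells, and the table does not separate reads from the longer and the shorter form.

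Summed over genes on the linear scale, the core histone classes were higher in adapted cells, while the H1 sums overlapped (mean ± SD, n = 3, no test). H2A was 60.9 ± 2.03 FPKM in parental and 92.0 ± 8.24 FPKM in adapted cells, and H2B was 90.7 ± 1.28 and 142 ± 15.2 FPKM. H3 was 7.10 ± 0.296 and 9.72 ± 1.12 FPKM, and H4 was 28.96 ± 1.36 and 37.0 ± 3.29 FPKM. In each of these 4 classes all adapted values lay above all parental ones. H1 was 21.1 ± 0.648 and 20.3 ± 1.40 FPKM, with overlap. All 71 genes came to 209 ± 2.31 FPKM in parental and 301 ± 27.7 FPKM in adapted cells, a ratio of 1.44, and to 1.35 without HIST1H2BK. HIST1H2BK made up 27.5% ± 1.03 of the sum in parental and 32.1% ± 0.617 in adapted cells. An exact permutation test of 3 against 3 samples could not give a p below 0.1, so none is given.

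**Figure D3:**
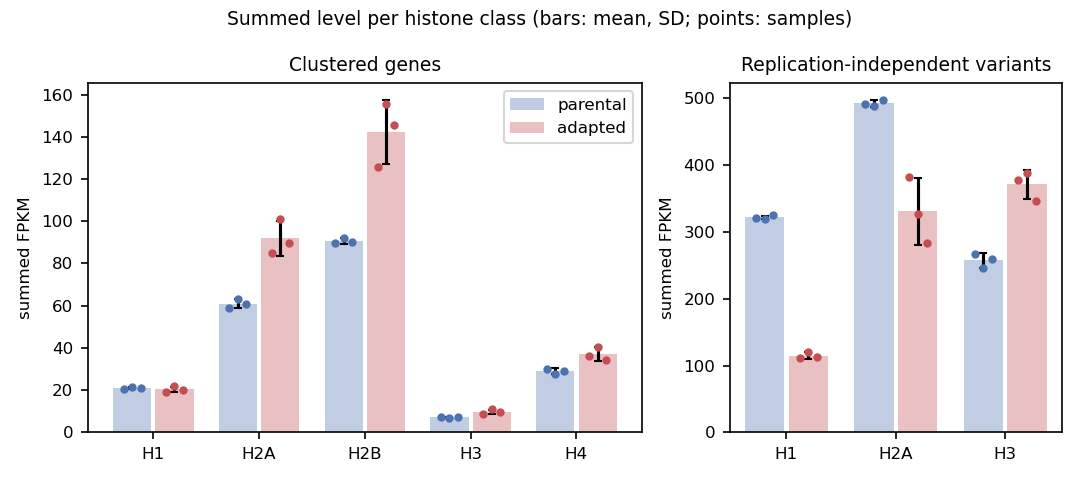
Summed FPKM of the clustered genes of each histone class and of the variant genes of the same class in every sample (points), with the mean as a bar from 0 and the SD as an error bar (n = 3). The clustered core histone sums are higher in all adapted samples, whereas the variant H1 and variant H2A sums are lower in all of them and the variant H3 sum is higher.

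The variant histones, from a list of 12 genes, came to 1072 ± 15.7 FPKM in parental and 817 ± 66.8 FPKM in adapted cells (mean ± SD, n = 3), with no overlap. Of 10 tested, 2 rose (20%) and 7 fell (70%), with a median log2 fold change of -0.75. These counts stand beside 17 and 2 of 30 clustered genes, and 30.7% higher and 26.2% lower over all rows tested. The linker variants both fell. H1F0 was 7.69, 7.68 and 7.72 in parental and 5.97, 6.25 and 6.25 in adapted cells (-1.54, limma adjusted p = 1.65e-05), and H1FX had a log2 difference of -1.37 (limma adjusted p = 5.21e-05). CENPA, the H3 variant of centromeres, was 4.28, 4.32 and 4.30 against 3.13, 2.44 and 2.23 (-1.70, limma adjusted p = 4.50e-04). The H2A variants H2AFJ (-0.82), H2AFZ (-0.76), H2AFX (-0.74, the variant phosphorylated at DNA breaks) and H2AFV (-0.38) fell, with limma adjusted p from 1.11e-04 to 0.0276, though H2AFV lost the call with no filter and when any 1 of the 3 parental samples was left out, and H2AFZ without parental replicate 2 or 3. MacroH2A (H2AFY) was not called (-0.09, limma adjusted p = 0.283). H3F3A, a gene of the replacement histone H3.3, was 7.34, 7.15 and 7.29 in parental and 8.05, 8.09 and 7.98 in adapted cells, with no overlap (0.78, limma adjusted p = 1.19e-04). H3F3B, the other such gene, rose by 0.25 (limma adjusted p = 0.0367), a call lost with no filter and in 5 of the 6 fits that left out a sample. H2AFY2 and H3F3C had means under 1.

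Of the summed H1 FPKM, clustered genes made up 6.15% ± 0.192 in parental and 15.0% ± 0.372 in adapted cells, and of H2A 11.0% ± 0.381 and 21.9% ± 3.28. For H3 the share was 2.68% ± 0.0108 and 2.55% ± 0.276, with overlap. For H1 the clustered sum itself overlapped between groups, and the variant sum was 322 ± 2.94 and 115 ± 4.89 FPKM.

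Genes that make or degrade histone mRNA were examined as a list of 20, all tested, of which 4 rose and 6 fell (median log2 fold change -0.15). These are 20% and 30%, near the 30.7% higher and 26.2% lower over all rows tested. NPAT, the coactivator of the histone arrays, had a log2 difference of -0.10 (limma adjusted p = 0.283), SLBP of -0.16 (limma adjusted p = 0.187) and LSM11, a subunit of the U7 snRNP, of -0.14 (limma adjusted p = 0.185). None of these 3 passed the threshold, which does not show that they did not differ. Among the 7 genes for transcription 1 rose and 3 fell. POU2F1, the octamer-binding factor, fell from 2.75 ± 0.06 to 1.89 ± 0.03 (mean ± SD, n = 3, log2 fold change -0.86, limma adjusted p = 7.94e-05), CDK2 was at -0.59 (limma adjusted p = 4.06e-04), and CASP8AP2 (FLASH) was at -0.27 (limma adjusted p = 0.0168). CCNE2, a cyclin that works with CDK2, rose by 0.45 (limma adjusted p = 0.0023). Of 9 genes for the 3′ end 1 rose and 2 fell, and of 4 genes for decay 2 rose and 1 fell. The gene that fell among the latter was ERI1, an exonuclease that trims histone mRNA (-0.76, limma adjusted p = 4.36e-04). LSM1 (0.30, limma adjusted p = 0.0158), which takes part in decay, and SRRT (0.22, limma adjusted p = 0.0337), a partner of the cap-binding complex, rose. SRRT and LSM1 lost the call in some fits that left out a sample, as did CASP8AP2.

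Histone chaperones, the proteins that carry histones to DNA, gave 4 higher (20%) and 10 lower (50%) of 20 tested (median log2 fold change -0.22). Over all rows tested, 30.7% were called higher and 26.2% lower. The chaperones that fell most were HJURP, which loads CENPA (-2.07, limma adjusted p = 1.32e-04), ASF1B (-1.22, limma adjusted p = 8.88e-04) and CHAF1A (-1.06, limma adjusted p = 2.88e-04), the latter 2 of the replication-coupled route. The chaperones that rose most were UBN1 (0.52, limma adjusted p = 2.58e-04), HIRA (0.40, limma adjusted p = 0.00126) and ASF1A (0.40, limma adjusted p = 0.00361). UBN1 and HIRA are subunits of the complex that deposits histone H3.3 outside replication.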

How the data were processed

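RNA-sequencing values of 3 parental and 3 adapted samples of H1975 cells were used. The authors deposited 1 table of log2 values with 1 column per sample, 27216 rows in all, and do not name the unit. It was taken as log2(FPKM + 1). Removing the log2 and the 1 gave values with 6 decimals in all but 147 rows, none of them a clustered histone gene. The decimals bear on the log2 and the 1 only, and FPKM as the unit was assumed. Bowtie2 2.1.0, STAR, edgeR and the build hg38 stand in the submitters' processing notes without a role. The study's methods name a test that needs counts, so limma 3.58.1 in R 4.3.3 (lmFit, eBayes with an intensity trend) was run on all rows with a mean of at least 1 (12656 rows), unpaired, with Benjamini-Hochberg adjustment over these rows and a threshold of 0.05. Fold changes on this scale understate the change of low genes. In simulated data with 200 of 12656 genes changed, 91% were recovered at a log2 fold change of 1 and 41% at 0.5, and 8.54% and 2.38% of the calls were false. In the real data 56.9% of rows were called, so these rates need not hold for this fit.

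The members, gene lists and tests were chosen with earlier results of these data known. Named were all members with a mean of at least 1, the 3 on each side of that limit, up to 5 low members called with no filter, all variants, and the factors and chaperones that moved most, besides NPAT, CASP8AP2, SLBP and LSM11. Stem-loops and promoter motifs were searched with Python 3.11.15, and sequence identities were computed with edlib 1.3.9.post1 from edit distances. The settings varied were the pseudocount (0.1), the filter on low values (none, or a mean of 3), quantile normalization, scaling to equal sums, median centring, other eBayes settings, a replicate block, a fold threshold and leaving out each sample. The authors' read counts were not used here, so no counting error can be given.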

Additional observations from a re-analysis of the deposited data

How the results depend on the processing

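Of the 19 clustered histone genes called, 14 kept their call at an adjusted p under 0.05 in every alternative in which they were tested as single genes, the fold threshold below apart, and HIST1H2AE, HIST1H2AM, HIST2H2BF, HIST3H2BB and HIST4H4 lost it in some. Scaling alternatives gave 15 to 18 members higher and 2 lower. With the replicate number as a block the counts were 17 higher and 2 lower: HIST1H2AM (adjusted p = 0.0637 with limma) and the factor SRRT lost the call, HIST2H2AA4 gained it, and no other named gene changed. The numbers did not pair the samples, since same-numbered samples deviated from their group means with correlations of -0.051, -0.031 and -0.020.

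Leaving out 1 sample gave 12 to 16 members higher and 2 lower, with 3 to 4 of H2A higher (3 without parental 1, parental 3 or adapted 3), 1 to 2 variants higher (1 unless adapted 3 was left out) and 1 to 4 factors higher (2, 2 and 1 without parental 1, 2 and 3). With no filter the calls lower were 8 in all, 2 for H1, 2 for H2A, 2 for H3 and 1 for H4, the calls higher were 3 for H2A and 1 for the variants, and the median was 0.041. With a mean of at least 3 fewer genes were tested: 4 members rose and 0 fell, with 2 higher for H2A, 2 for H2B, 0 for H3 and 0 for H4, 0 lower for H1 and for H2B, and 3 factors lower. The members tested were HIST1H2BK, HIST1H2AC, HIST1H1C, HIST2H2AA3, HIST2H2AA4, HIST3H2A, HIST2H4A, HIST1H2BC, HIST2H4B and HIST2H2BE. No H3 gene was tested there, nor were HIST1H1D and HIST1H2BJ, the members that fell. The share called over all rows at this limit is not given here. With a log2 fold change of at least 1 required, 2 members were higher, with 1 for H2A, 1 for H2B, 0 for H3 and 0 for H4. Under that rule 0 variants, 0 factors and 0 chaperones were higher, and 3 variants, 0 factors and 3 chaperones were lower. A pseudocount of 0.1 gave a median of 0.61. The sign of uncalled members turned for HIST2H4A under quantile normalization (-0.0094) and median centring (-0.015), and for HIST1H2BN under quantile normalization (-0.0033). With 1 sample left out, the lowest and highest values were -0.077 and 0.17 for HIST2H4A, -0.039 and 0.12 for HIST1H2BN, -0.065 and 0.29 for HIST2H2AA3, -0.13 and 0.33 for HIST1H4J, and -0.34 and 0.066 for HIST1H2BC. Except where the filter or the rule itself removed genes, the cause was not tested. The depth of the samples is unknown, so differences among members near 0 cannot be set against counting error.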
